A study of Mus musculus with 6 samples.

Results

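Hao2, Mgarp, Olfm3, Prss35 and Klhdc8a are 5 of 18193 genes measured in mouse adrenal medulla and carotid body, and are covered here because little is said of them although their levels differed so far between the organs. They were picked from the genes with the largest differences toward adrenal medulla, so those differences chose them and are given below as a description, with no test. Among genes that passed the test of the tissue difference, were higher in adrenal medulla in all 3 cohort pairs and had an adrenal medulla mean at or above the 75th percentile, they held ranks 3 (Hao2), 6 (Mgarp), 7 (Olfm3), 8 (Prss35) and 10 (Klhdc8a). The adrenocortical receptor gene Mc2r lay between the last of these at rank 9. Just inside the choice, Klhdc8a differed by 5.47 on the log2 scale (adrenal medulla minus carotid body). Just outside it, the neuropeptide Y receptor gene Npy2r (rank 11) differed by 5.34, Prl8a2 of the prolactin family (rank 12) by 5.05 and the sodium, calcium and potassium exchanger gene Slc24a2 (rank 13) by 4.99. All 5 genes had a probe set of their own, 8 in all of 45037. Over all 45037 probe sets, 4.58% were called higher in adrenal medulla and 5.95% lower, 10.5% in either direction, by limma at an adjusted p under 0.05 and at least 2-fold. Nothing about the 5 genes is read against these shares, since the same contrast chose them.

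The 5 genes come from unrelated families. Hao2 encodes a peroxisomal flavin enzyme that oxidises 2-hydroxy acids, best known from kidney and liver. Mgarp, also called Osap and HUMMR, encodes a glutamate-rich protein of mitochondria that has been described in steroid-producing tissue and, in neurons, as a hypoxia-inducible partner of the Miro and Trak proteins, which link mitochondria to motor proteins. Olfm3, or optimedin, encodes a secreted glycoprotein with an olfactomedin domain, known from retina and brain, where olfactomedins bind AMPA-type glutamate receptors. Prss35 encodes a secreted protein of the trypsin fold that was described in mouse ovary. Klhdc8a encodes a protein of kelch repeats that has been studied mostly in human glioma. The adrenal medulla is the core of chromaffin cells that secrete catecholamines; it is wrapped by a cortex that makes steroids, and in mice the innermost cortex, the X-zone, is a transient layer that regresses earlier in males than in females. The carotid body is a cluster of oxygen-sensing glomus cells with glia, vessels and connective tissue.

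Of these genes 3 lie on the same chromosome, Hao2 at chr3:98874519-98895376, Mgarp at chr3:51388412-51396547 and Olfm3 at chr3:114904078-115125764, all on GRCm38.p6. Prss35 lies at chr9:86743240-86758443 and Klhdc8a at chr1:132298490-132307357. Chromosome 3 held 5.06% of the 18029 genes with a known chromosome and 4.09% of the 1101 such genes called higher in adrenal medulla. RefSeq promoter windows, from 250 bases before to 50 bases after an annotated transcript start, were found for all 5 genes, with 2 windows for Olfm3. They are shown for Mgarp and Prss35, the genes whose windows held a searched motif, and for Hao2, the gene whose profile lay nearest to cortex genes and whose window held none. Capitals mark the motifs.

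Mgarp: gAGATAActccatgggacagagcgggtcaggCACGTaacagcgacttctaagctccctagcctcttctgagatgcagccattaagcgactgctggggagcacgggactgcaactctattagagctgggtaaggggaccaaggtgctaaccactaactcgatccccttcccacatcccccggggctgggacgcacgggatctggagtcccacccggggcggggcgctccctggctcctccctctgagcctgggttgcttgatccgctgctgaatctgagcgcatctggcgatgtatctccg

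Prss35: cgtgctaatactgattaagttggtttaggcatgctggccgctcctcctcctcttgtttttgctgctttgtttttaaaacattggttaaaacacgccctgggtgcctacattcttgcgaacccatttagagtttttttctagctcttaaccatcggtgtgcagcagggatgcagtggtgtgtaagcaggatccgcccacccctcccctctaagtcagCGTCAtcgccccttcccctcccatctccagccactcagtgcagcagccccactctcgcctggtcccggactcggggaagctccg

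Hao2: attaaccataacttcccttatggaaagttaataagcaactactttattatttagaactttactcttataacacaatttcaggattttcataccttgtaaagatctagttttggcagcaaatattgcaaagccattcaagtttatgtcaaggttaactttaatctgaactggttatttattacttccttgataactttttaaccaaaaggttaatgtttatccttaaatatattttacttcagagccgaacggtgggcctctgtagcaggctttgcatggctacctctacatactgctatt

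The Mgarp window is chr3:51396498-51396797 (minus strand), the Prss35 window chr9:86743383-86743682 (plus strand) and the Hao2 window chr3:98893181-98893480 (minus strand), all read 5′ to 3′ along the gene. The Hao2 and Prss35 windows lie wholly inside the spans given above for these genes. They therefore belong to an inner transcript start, and the sequence before the outer 5′ end of either gene was not searched. The motifs searched on both strands were AAGGTCA (a half-site bound by the steroidogenic factor Nr5a1), ACGTG (the core of the hypoxia response element), CGTCA (a half-site of the cyclic AMP response element), AGATAA (a site of GATA factors) and TATAAA (the TATA box). Mgarp held ACGTG on the opposite strand, starting at position -219 with the start site counted as 0, and AGATAA at position -249. Prss35 held CGTCA at position -34. No matches overlapped. Of 32851 promoter windows in the table, 19.6% held ACGTG, 20.8% CGTCA, 11.2% AGATAA, 4.72% AAGGTCA and 13.6% TATAAA. No window of the 5 genes held AAGGTCA or TATAAA. The windows ranged in base composition, with 32.3% G and C and 2 CpG in Hao2 against 60.7% and 16 in Mgarp. Over all windows the median was 52.7%.

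In all, 6 arrays were compared, 3 of adrenal medulla and 3 of carotid body, all from untreated adult C57/BL6 mice. Each array held RNA pooled from a cohort of 10 mice, as 10 medullas or 18 carotid bodies. As the series states, the group numbers 1, 2 and 3 mark the cohort that gave both organs. All values are log2 intensities as deposited. They came without detection calls, so a low value does not show whether a gene was expressed. Nothing in the labels gives the sex of the mice.

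The tissue labels fitted the markers of each organ, with cortex RNA in addition. Of 16 measured chromaffin markers, 11 passed the test as higher in adrenal medulla and 0 as lower, against 6.08% and 5.91% of all genes (limma, adjusted p under 0.05 and at least 2-fold). Th, the rate-limiting enzyme of catecholamine synthesis, was 12.97, 13.83 and 13.70 in adrenal medulla and 11.42, 11.89 and 11.76 in carotid body. Of 7 glomus cell markers, 6 were lower in adrenal medulla, the lactate-responsive receptor Olfr78 among them by -6.15 ± 0.28 (SE; adjusted p = 1.99e-05), and 1, the potassium channel gene Kcnk3, was higher. Most cortex markers were bright on all adrenal medulla arrays, and all were higher on carotid body array 1 than on carotid body arrays 2 and 3. Nr0b1 was dim, at 3.70 to 5.36 in adrenal medulla and 4.24 on carotid body array 1. Cyp11b2 was 5.01 on carotid body array 1, below that array's median of 5.32. Star, which carries cholesterol into mitochondria for steroid synthesis, was 13.92, 13.95 and 13.52 in adrenal medulla, and 12.06, 3.85 and 3.81 in carotid body arrays 1, 2 and 3. The 12 cortex markers, summed, had log2 levels of 16.18 to 16.62 in adrenal medulla and of 14.93, 10.97 and 10.60 in the carotid body arrays. Carotid body array 1 is therefore shown apart throughout. For the Gapdh controls, whose 3′ probes outshine the 5′ probes where RNA is degraded, the gap (log2) was 0.13 to 0.61 on the adrenal medulla arrays and 1.45, 1.04 and 0.59 on carotid body arrays 1, 2 and 3.

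Hao2 was 12.88, 12.39 and 12.40 in adrenal medulla arrays 1, 2 and 3, against 9.63, 3.60 and 3.82 in carotid body. Carotid body arrays 2 and 3 were below the lower quartile of all probe sets (4.03 and 3.96), and array 1 stood far above them. The tissue means were 12.56 ± 0.28 in adrenal medulla and 5.69 ± 3.42 in carotid body (SD, n = 3 each), a log2 difference of 6.87, or 8.84 with carotid body array 1 set aside. Mgarp was 12.70, 12.14 and 11.53 in adrenal medulla, against 7.71, 4.61 and 4.88 in carotid body. Its means were 12.12 ± 0.58 and 5.74 ± 1.72 (SD, n = 3 each), which differed by 6.39, or by 7.38 with carotid body array 1 set aside. Mgarp thus had the same order of arrays as Hao2 in carotid body, with array 1 highest.

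Olfm3 was 9.96, 10.32 and 10.53 in adrenal medulla, against 6.67, 3.57 and 3.77 in carotid body (brightest probe set). Its means of 10.27 ± 0.29 and 4.67 ± 1.73 (SD, n = 3 each) differed by 5.60, or by 6.60 without carotid body array 1. Klhdc8a was 11.92, 10.94 and 10.43 in adrenal medulla, against 7.25, 5.11 and 4.51 in carotid body (brightest probe set). Its means of 11.10 ± 0.76 and 5.62 ± 1.44 (SD, n = 3 each) differed by 5.47, or by 6.28 without that array. In carotid body, both genes were again highest on array 1. Prss35 was 10.83, 10.63 and 10.16 in adrenal medulla, against 4.71, 4.97 and 5.26 in carotid body. Its means of 10.54 ± 0.35 and 4.98 ± 0.28 (SD, n = 3 each) differed by 5.56, or by 5.42 without array 1. Prss35 was the exception among the 5 genes: carotid body array 1 was its lowest array.

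**Figure D1:**
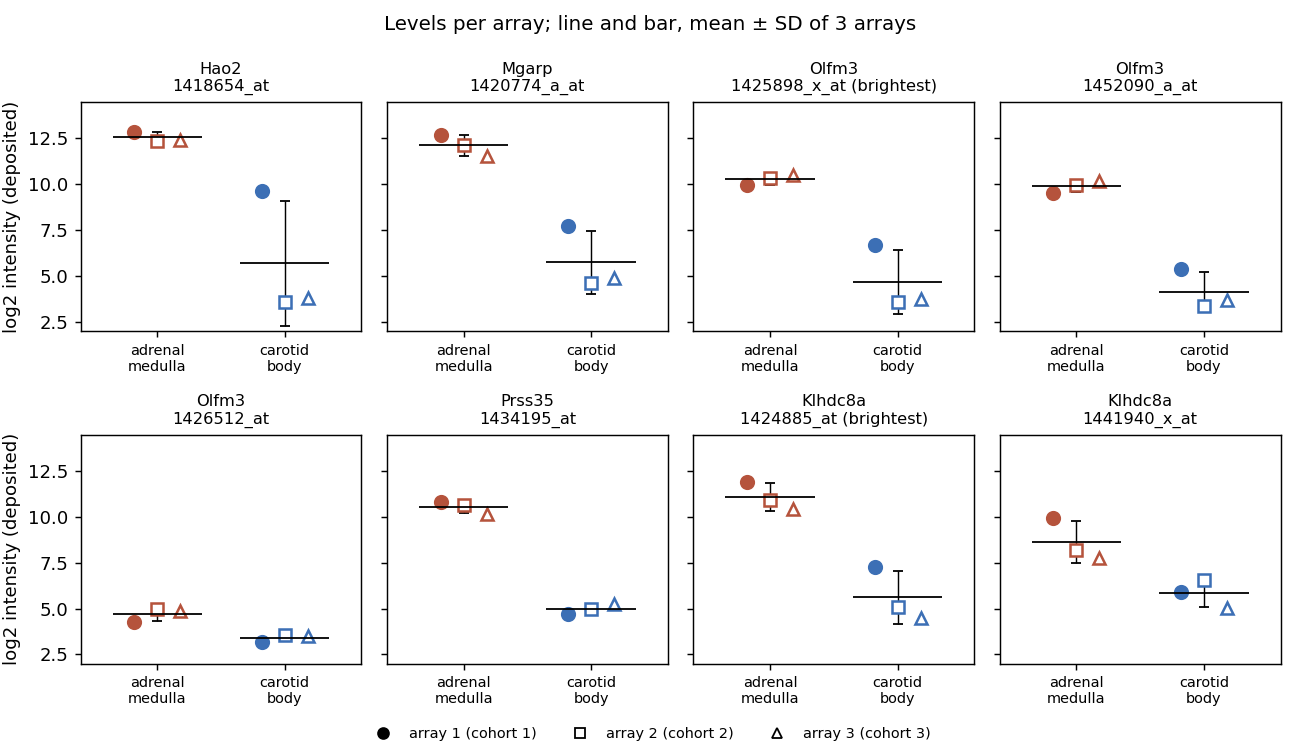
Deposited log2 intensity (vertical axis) of the 8 probe sets of Hao2, Mgarp, Olfm3, Prss35 and Klhdc8a on each adrenal medulla array (left in each panel) and carotid body array (right). Symbols give the array and cohort, lines the mean of 3 arrays and bars the SD; filled circles are array 1, which is the highest carotid body array for Hao2 (9.63), Mgarp (7.71) and the brightest probe sets of Olfm3 (6.67) and Klhdc8a (7.25), and the lowest for Prss35 (4.71) and for the dimmest Olfm3 probe set (3.19).

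In all 8 probe sets every adrenal medulla array was above every carotid body array, a pattern found in 26.1% of all genes and part of what the genes were chosen for. Fewer cells of a type and less RNA per cell cannot be told apart in pooled tissue. The size of the difference was not shared by all probe sets of a gene. The 3 probe sets of Olfm3 differed by 5.77, 5.60 and 1.28. The last of them was dim in both organs, at 4.26 to 4.98 in adrenal medulla and 3.19 to 3.57 in carotid body. The 2 probe sets of Klhdc8a differed by 5.47 and 2.79. Its weaker probe set was 9.93, 8.23 and 7.74 in adrenal medulla, against 5.92, 6.56 and 5.04 in carotid body, with array 2 highest there. Hao2, Mgarp and Prss35 each had 1 probe set. Within cohorts 1, 2 and 3 the adrenal medulla sample exceeded the carotid body sample by 3.25, 8.79 and 8.58 for Hao2, by 4.98, 7.53 and 6.65 for Mgarp, and by 3.29, 6.75 and 6.76 for Olfm3. For Klhdc8a these values were 4.67, 5.83 and 5.92. These are values of the brightest probe sets, and the smallest belonged to cohort 1 for these 4 genes. On the weaker probe set of Klhdc8a the largest belonged to cohort 1 instead, so its cohort pattern was not shared by both probe sets. For Prss35 the values were 6.13, 5.66 and 4.90, with the largest in cohort 1.

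Carotid body array 1 was set against the mean of carotid body arrays 2 and 3, which gives 1 array against 2 and no test. The excess in array 1 was 5.91 on the log2 scale for Hao2 (60.2-fold), 3.00 for Olfm3, 2.97 for Mgarp (7.82-fold) and 2.44 for Klhdc8a (5.41-fold), and it was -0.41 for Prss35. These are values of the brightest probe sets. On the other probe sets the excess was 1.84 and -0.34 for Olfm3 and 0.11 for Klhdc8a, so for these genes the excess was not shared by all probe sets. Hao2, Mgarp and Prss35 had no second probe set to set beside it. Ordered by this excess over 18193 genes, Hao2 ranked 9, Olfm3 35, Mgarp 36, Klhdc8a 56 and Prss35 15786. Only 238 genes, 1.31% of all, had an excess of at least 1. Of the cortex markers 10 of 12 did, with a median of 4.58 and a range of 0.73 to 8.67. Of the chromaffin markers 2 of 16 did, the adrenaline-forming enzyme gene Pnmt at 3.26 and the noradrenaline-forming enzyme gene Dbh at 1.15, and the list's median was -0.26. Dbh was 10.20, 10.23 and 7.86 on carotid body arrays 1, 2 and 3, so array 3 was low and array 1 was not the highest. Several chromaffin markers were also bright on carotid body arrays 2 and 3, such as Th (11.89 and 11.76) and Chga (12.24 and 12.35). The list's median therefore does not tell whether array 1 held chromaffin RNA. Among markers that were dimmer on arrays 2 and 3, the excess was 3.26 for Pnmt, 0.99 for Gata3, 0.17 for Pcsk1 and -0.38 for Slc18a1. Pnmt was 7.65 and 8.08 on arrays 2 and 3, and Slc18a1 was 8.31 and 8.37. The median was -0.34 over glomus cell markers and -0.03 over fibroblast and matrix markers, with 0 genes of either list at 1 or more.

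The level in carotid body array 1 can also be set against the adrenal medulla mean of the same probe set. On the linear intensity scale it was 13.1% of that mean for Hao2. Over the 12 cortex markers it was 8.13% to 84.6% with a median of 33.0%, and 2 of them, Cyp11b2 and Cyp11a1, lay below Hao2. The 84.6% belonged to Nr0b1, which was dim in both organs (means 4.48 in adrenal medulla and 3.72 in carotid body). Among the 12 were Cyp11a1, which makes pregnenolone from cholesterol, at 12.9%, Cyp11b1, which makes corticosterone, at 17.4%, and Star at 30.0%. It was 8.26% for Olfm3, 6.94% for Klhdc8a, 4.71% for Mgarp and 1.75% for Prss35, by their brightest probe sets. On the other probe sets it was 4.31% for Olfm3, or 35.1% where dim in both organs, and 15.2% for Klhdc8a. The order of the genes thus depended on the probe set. Over the 16 chromaffin markers it was 5.75% to 137% with a median of 25.1%. Several of these markers were bright on every carotid body array, so this share is not one of chromaffin RNA alone. The lowest of these were the prohormone convertase gene Pcsk1 at 5.75% and the transcription factor gene Gata3 at 5.93%, while Pnmt was at 18.4%, Th at 23.7% and Chga at 23.9%. The part that cortex RNA has in the levels of the 5 genes in either organ was not tested. Zonal cortex markers did not share 1 pattern: the X-zone enzyme gene Akr1c18 was 5.72, 7.72 and 4.28 in adrenal medulla, and 13.68, 5.63 and 5.11 in carotid body. It was thus higher in carotid body array 1 than on any adrenal medulla array. Pik3c2g, another X-zone gene, was 3.17 to 3.50 in adrenal medulla, against 6.59, 3.29 and 3.29 in carotid body. Xist, the transcript of the inactive X chromosome in females, was 4.45 to 5.60 in adrenal medulla and 8.84 to 10.96 in carotid body, highest in array 1. The Y-linked genes Eif2s3y, Kdm5d and Uty were 7.26 to 8.50 in adrenal medulla and 6.24 to 7.91 in carotid body, 0.67 to 0.87 higher in adrenal medulla on average. Xist was thus higher in carotid body than in adrenal medulla in every cohort, so same-numbered pools may differ in sex make-up. Sex make-up and tissue cannot be told apart on these arrays. The part of sex in the values of the 5 genes was not tested.

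**Figure D2:**
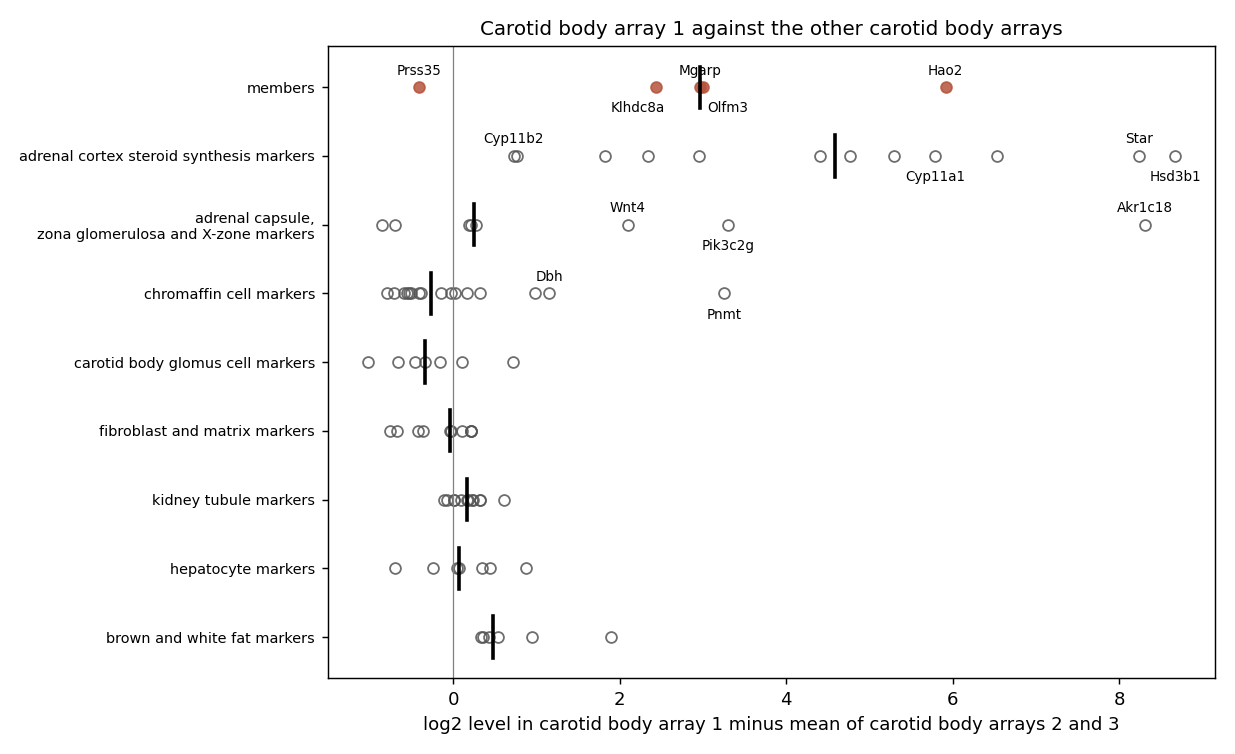
Log2 level in carotid body array 1 minus the mean of carotid body arrays 2 and 3 (horizontal axis) for the 5 genes (filled) and for each gene of 8 marker lists (open circles), with list medians as bars. Hao2 (5.91) lies among the cortex markers (median 4.58), Olfm3, Mgarp and Klhdc8a lie between 2.44 and 3.00, and Prss35 (-0.41) lies below 0, as do the medians of the chromaffin (-0.26) and glomus cell (-0.34) markers.

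The adrenal medulla arrays also differed among themselves. Array 1 was highest for Hao2, Mgarp, Prss35 and Klhdc8a, and lowest for Olfm3 on all 3 of its probe sets. Array 1 exceeded array 3 by 1.49 for Klhdc8a (2.19 on its other probe set), 1.17 for Mgarp, 0.67 for Prss35 and 0.48 for Hao2, and the value for Olfm3 was -0.57. Over all genes the median was -0.03 and array 1 was highest in 32.6%. Array 1 was highest for 0 of 16 chromaffin markers (median -0.46), 6 of 12 cortex markers (median 0.46) and 6 of 8 markers of the capsule, zona glomerulosa and X-zone (median 2.37). Of these 8, 1 (Wnt4) was called higher in adrenal medulla and 1 (Gli1) lower, against 6.08% and 5.91% of all genes. The count of those higher was 2 with a cohort block, with array weights, with the dimmer probe sets left out, without cohort 1 or without adrenal medulla array 3. It was 0 with an intensity trend, without cohort 2, without adrenal medulla array 2 or without carotid body array 2. The capsular Wnt enhancer Rspo3 and the angiotensin receptor Agtr1b are also named from that list, chosen after their values were seen. Array 1 exceeded array 3 by 3.63 for Rspo3 (9.34 in array 1) and by 3.52 for Agtr1b, the largest values of the list. On the carotid body arrays Rspo3 was 7.60 to 7.97, above adrenal medulla arrays 2 and 3. Among the adrenal medulla arrays, Akr1c18 was instead highest in array 2 and Pik3c2g in array 3. Array 1 was also highest for 5 of 6 fat markers. The part of outer cortex or fat in the order of the arrays for the 5 genes was not tested.

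The genes nearest to each of the 5 over all 6 arrays were found as those with the smallest root-mean-square difference after each gene was centred on its own mean, among 18193 genes. Hao2 was nearest to Cyp11a1 (0.20 on the log2 scale), Cyp11b1 (0.32) and Mc2r (0.80), the receptor for adrenocorticotropic hormone. Mgarp was nearest to Klhdc8a (0.57), Olfm3 (0.64) and the angiotensin receptor gene Agtr2 (0.75). Klhdc8a was nearest to Mgarp (0.57), Npy2r (0.63) and Ly6d (0.64), a small membrane-anchored protein that, like Klhdc8a, was highest in adrenal medulla array 1. Olfm3 was nearest to Npy2r (0.40), the background potassium channel gene Kcnk2 (0.47) and Pnmt (0.51). Prss35 was nearest to Slc24a2 (0.61), Gata3 (0.74) and the R-spondin receptor gene Lgr5 (0.79). Hao2 and Prss35 were the pair farthest apart among the 5, at 2.21, and Mgarp and Klhdc8a the nearest, at 0.57. Set against fixed genes, Hao2 lay 0.81 from Star and 3.11 from the granule protein gene Chga, while Prss35 lay 3.00 from Star and 1.76 from Chga. Olfm3, Mgarp and Klhdc8a lay 1.82 to 2.16 from Star and 1.95 to 2.39 from Chga. Other genes of both kinds were nearer: Pnmt lay 0.51 from Olfm3, 1.03 from Mgarp and 0.86 from Klhdc8a, and Cyp11a1 lay 1.14, 1.00 and 1.37 from these 3 genes. The tissue difference that chose these genes also enters this measure. Each gene stood by its brightest probe set, and other probe sets of 2 of the near genes gave other values. The 3 probe sets of Cyp11a1 differed by 0.25 to 6.81 between the organs, with 1 called. Those of Pnmt differed by 0.71 to 7.35, with 2 of 3 called.

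**Figure D3:**
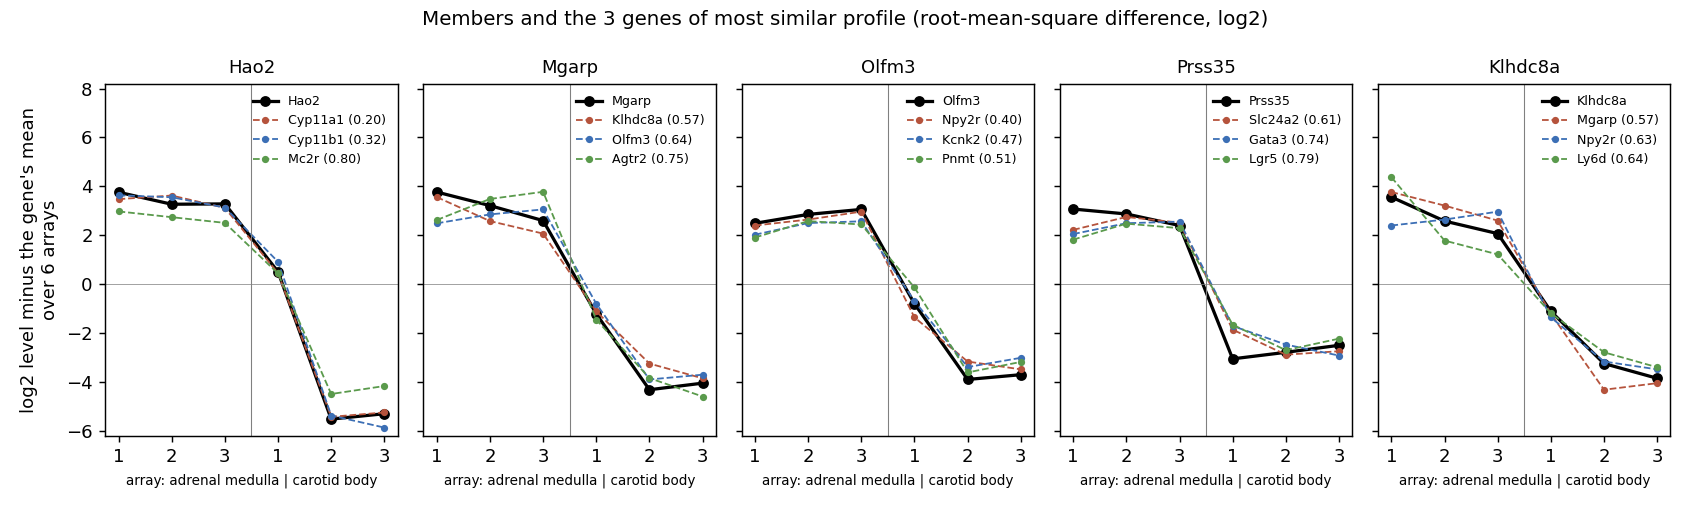
Log2 level minus the gene's own mean over 6 arrays (vertical axis) for each of the 5 genes (black) and its 3 nearest genes (dashed), with adrenal medulla arrays 1 to 3 left of the grey line and carotid body arrays 1 to 3 right of it; lines only join the values of a gene, and the legend gives the root-mean-square difference. Hao2 and Cyp11a1 (0.20) nearly coincide, and carotid body array 1 is raised in every panel's member except Prss35.

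The relatives of the 5 genes were compared between the organs in 6 lists, which leave out the genes themselves. Of 106 measured relatives, 8 were higher and 8 lower in adrenal medulla, 15.1% in all, against 12% of all genes called in either direction. Among 28 peroxisomal genes around Hao2, 4 were higher in adrenal medulla and 1 was lower, against 6.08% and 5.91% of all genes, with a median difference of 0.16. Hao1, the glycolate-oxidising paralogue of Hao2 in liver, was 3.53 to 3.64 in adrenal medulla and 3.40 to 3.71 in carotid body and differed by -0.03 ± 0.13 (SE; limma adjusted p = 0.915). The genes called were Nudt12, a peroxisomal NADH hydrolase, at 1.41 ± 0.25 (adjusted p = 0.00595), Pecr, a trans-enoyl-CoA reductase, at 1.33 ± 0.14 (adjusted p = 0.0006), the fatty acid oxidation gene Ehhadh and the phytanoyl-CoA hydroxylase gene Phyh. The D-aspartate oxidase gene Ddo differed by -1.42 ± 0.27 (adjusted p = 0.00834; 0.0559 without cohort 1). Without cohort 2 the genes called higher in this list numbered 1, and without carotid body array 1 those called lower numbered 2. Without cohort 2 the adjusted p of Nudt12 was 0.0808. The other probe set of Pecr differed by 0.04, and of the 4 probe sets of Ddo 1 was called.

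Hao2 is best known from kidney and liver, so markers of both were read beside it. Of 12 kidney tubule markers 0 were called in either direction, against 12% of all genes, and so short a list may hold none at that share. Their summed log2 level was 7.89 to 8.09 in adrenal medulla and 7.99 to 8.27 in carotid body. The proximal tubule phosphate transporter Slc34a1 was 4.21, 4.07 and 4.07 in adrenal medulla and 4.24, 4.12 and 4.00 in carotid body. Of 7 hepatocyte markers 0 were likewise called, with Alb at 3.97 to 4.42 in adrenal medulla and 4.08 to 4.67 in carotid body. Cyp2e1, which fat also expresses, had a difference of -2.46. Its adjusted p was 0.0828, but 0.00898 with a cohort block, 0.0313 without cohort 1 and 0.0152 without adrenal medulla array 1.

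Among 20 genes of mitochondrial transport and dynamics, around Mgarp, 0 were higher in adrenal medulla and 1 was lower, near the 6.08% and 5.91% of all genes, with a median difference of 0.18. That gene was the hypoxia-inducible factor Epas1, which is also among the glomus cell markers, at -1.69 ± 0.16 (SE; adjusted p = 0.000464). Hif1a, the factor through which Mgarp was found to be hypoxia-inducible, was 10.48, 10.59 and 10.69 in adrenal medulla and 10.79, 10.51 and 10.90 in carotid body, a difference of -0.15 ± 0.14 (adjusted p = 0.519). The mitochondrial GTPase genes Rhot1 and Rhot2 differed by 0.56 (adjusted p = 0.0848) and 0.62 (adjusted p = 0.0218), both under 2-fold, and the adaptor genes Trak1 and Trak2 by 0.05 (adjusted p = 0.892) and -0.43 (adjusted p = 0.0616).

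Of 10 other measured genes of the olfactomedin family, 0 were called higher in adrenal medulla and 4 were lower, against 6.08% and 5.91% of all genes. Olfml2b, a matrix protein, was 6.57, 6.69 and 6.70 in adrenal medulla, against 9.53, 10.09 and 9.77 in carotid body, a difference of -3.14 ± 0.16 (SE; adjusted p = 3.3e-05). Olfml2a differed by -1.78, Olfml1 by -1.73 and Olfml3 by -1.70. In the same arrays 10 of 10 fibroblast and matrix markers were lower in adrenal medulla, with summed log2 levels of 12.74 to 13.07 there and 15.57 to 15.82 in carotid body; their part in the olfactomedin values was not tested. Olfm1, the widely expressed neuronal member, was 9.29, 9.51 and 9.39 in adrenal medulla and 9.56, 10.05 and 9.86 in carotid body (difference -0.43 ± 0.15, adjusted p = 0.0819), and Olfm2 differed by -0.59 (adjusted p = 0.239). The latrophilin gene Adgrl1 was 9.41, 9.97 and 9.62 in adrenal medulla, against 8.59, 8.90 and 8.72 in carotid body, a difference of 0.92 (adjusted p = 0.00694) that was under 2-fold. With each array centred on its median, 1 family member was called higher in adrenal medulla, as also without adrenal medulla array 1 or carotid body array 2.

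AMPA receptors bind olfactomedins in brain. Of their 14 subunit and auxiliary subunit genes 4 were higher in adrenal medulla, 0 were lower and 10 were not called, against 6.08% and 5.91% of all genes. Their median difference was 0.19. The auxiliary subunit gene Cacng4 differed by -0.46 (adjusted p = 0.0256), under 2-fold. The auxiliary subunit gene Gsg1l was 9.22, 9.99 and 9.71 in adrenal medulla, against 6.95, 4.99 and 4.96 in carotid body, a difference of 4.01 ± 0.52 (SE; adjusted p = 0.00161). Carotid body array 1 was again its highest, by 1.97. Shisa9, another auxiliary subunit, differed by 3.23 ± 0.26 (adjusted p = 0.000209), although only 1 of its 3 probe sets was called, and the pore subunit Gria3 by 2.72 ± 0.25 (adjusted p = 0.000375). The other gene called was the pore subunit Gria2. Without cohort 2, 2 of the 14 were called, and the adjusted p of Gsg1l was 0.0502.

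Of 28 Prss genes 0 were higher in adrenal medulla and 2 were lower, near the 6.08% and 5.91% of all genes. Prss23, the closest relative of Prss35, was 9.03, 9.01 and 9.23 in adrenal medulla, against 11.35, 10.76 and 11.27 in carotid body, a difference of -2.04 ± 0.17 (SE; adjusted p = 0.000278), with 2 of its 3 probe sets called. Prss12, or neurotrypsin, differed by -1.68 ± 0.18 (adjusted p = 0.000728). Of 6 kelch genes 0 were called, against 12% of all genes, and their median difference was 0.25. Klhdc8b, the paralogue of Klhdc8a, was 8.60, 9.37 and 9.24 in adrenal medulla and 8.07, 8.57 and 8.60 in carotid body, a difference of 0.66 ± 0.24 (adjusted p = 0.0858), and the bright members Klhdc2 and Klhdc3 differed by 0.18 (adjusted p = 0.438) and -0.09 (adjusted p = 0.722).

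**Figure D4:**
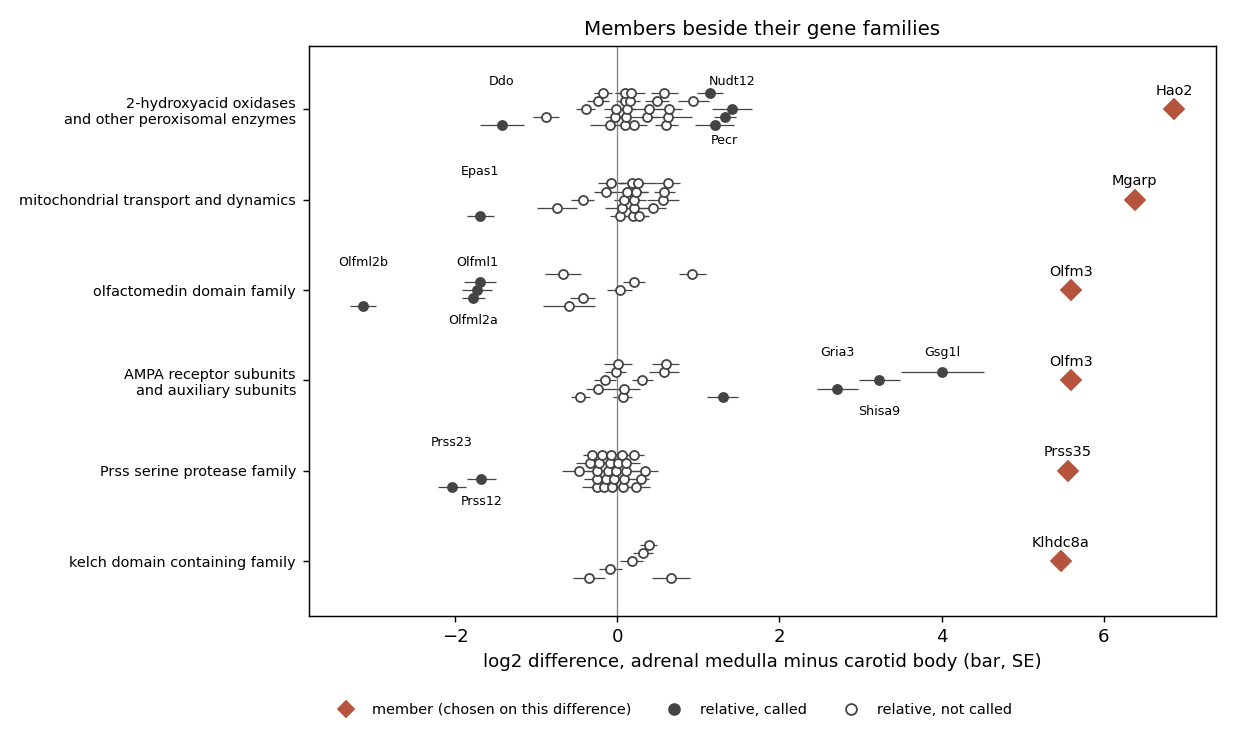
Log2 difference, adrenal medulla minus carotid body (horizontal axis, bars SE), of the relatives in 6 lists (circles, filled where called at an adjusted p under 0.05 and 2-fold) beside the 5 genes (diamonds), which were chosen on this difference. Olfml2b (-3.14) and Prss23 (-2.04) lie on the other side of 0 from Olfm3 and Prss35, and Gsg1l (4.01) lies on the side of Olfm3.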

How the data were processed

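The deposited table holds log2 intensities, a scale inferred from their range (2.70 to 14.97). Per the submitters' processing notes they were made in Affymetrix Expression Console, with version, summarisation and normalization unstated. Of 45101 probe sets, 64 controls were left out and 45037 tested. The 2016 platform annotation gave 34945 probe sets 1 symbol, 932 several (left unnamed) and 9160 none; positions and promoters are RefSeq's on GRCm38.p6. The probe set with the highest mean stood for each gene.

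The test was limma's moderated comparison of the tissues (version 3.58.1, R 4.3.3; lmFit, eBayes, no block), two-sided, with Benjamini-Hochberg adjustment over all 45037 probe sets, and called at an adjusted p under 0.05 and 2-fold. The fit was tested on simulated data. The 5 genes, the lists and the tests were chosen with earlier results of these data known. Named relatives and markers are the 3 largest differences called in each list, or its 2 brightest genes where none was called. A fixed set of genes is named as well. Ehhadh, Phyh, Olfml3, Gria2, Adgrl1, Cacng4, Kcnk3, Cyp11b2, Nr0b1, Slc18a1, Xist and the Y-linked genes were named after their values were seen. In the list of mitochondrial genes Hif1a and Epas1 were included as regulators. Same-numbered samples came from the same cohort, as the series states; their deviations from the tissue means correlated at 0.22, 0.08 and 0.16 over probe sets, against -0.21 to 0.10 for unlike numbers. The 3 arrays per tissue limit the precision. Protein comparisons were planned and not run. Alternatives are given in the closing section.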

Additional observations from a re-analysis of the deposited data

How the results depend on the processing

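The differences of the 5 genes kept their direction under every alternative run. In each of their probe sets every adrenal medulla array was above every carotid body array. Leaving out arrays or cohorts, or adding a block, therefore could not change the direction, and only the size is informative. With single arrays or whole cohorts left out they ranged from 5.83 to 8.84 for Hao2, 5.81 to 7.38 for Mgarp, 5.02 to 6.75 for Olfm3, 5.28 to 5.89 for Prss35 and 4.92 to 6.28 for Klhdc8a. The mean of all probe sets gave 4.22 for Olfm3 and 4.13 for Klhdc8a, and for their excess in carotid body array 1, an alternative chosen after seeing the data, 1.50 and 1.28. Leaving out arrays or cohorts gave 952 to 2499 probe sets higher in adrenal medulla (2064 with all arrays) and 1626 to 3025 lower (2680), with the lowest counts without cohort 2; the cause was not tested. With arrays centred on their medians the median probe set differed by 0.11, against -0.01 as deposited, and the share of called probe sets that were higher in adrenal medulla was 54% with it and 43.5% without. Of the relatives, 16 were called, and 11 to 19 with arrays or cohorts left out. With the cohort number as a replicate block the probe sets called were 2108 higher and 2737 lower and the relatives called were 16; of all list genes it changed the calls of Hsd3b1 (adjusted p 0.0308 with it and 0.0553 without), Agtr1b (0.0362 and 0.0755), Cyp2e1 (0.00898 and 0.0828) and Adipoq (0.0328 and 0.343), and it leaves each gene's difference as it is, such as 6.87 for Hao2. Of 420 list counts under alternatives, 390 stayed close to the count reported and 30 moved. The cortex markers called higher in adrenal medulla numbered 10 of 12, but 1 without cohort 2, 3 without cohort 3 or with an intensity trend, and 4 or 5 without any single adrenal medulla array or carotid body array 2. The adjusted p of Star was 0.0357 and ranged from 6.14e-06 to 0.282. With no detection calls and values near the lower end of the scale in carotid body, differences there may be compressed, which was not tested.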

Other observations

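Among all genes, several with a large excess in carotid body array 1 were higher there than on any adrenal medulla array, unlike Hao2; they were chosen after their values were seen. Akr1d1, a steroid reductase known from liver, was 3.88, 4.46 and 3.80 in adrenal medulla and 10.65, 3.57 and 3.67 in carotid body. Apoc1, an apolipoprotein gene, was 6.01, 5.75 and 5.86 in adrenal medulla and 12.52, 5.99 and 6.04 in carotid body. Bhmt, a methyltransferase of homocysteine metabolism, was 5.58, 4.20 and 4.28 in adrenal medulla and 9.64, 4.18 and 4.13 in carotid body. Vnn1, a pantetheinase gene, was 7.94, 7.42 and 7.61 in adrenal medulla and 10.82, 4.30 and 4.91 in carotid body, so that its adrenal medulla arrays lay between carotid body array 1 and the others. Hsd3b1 and Akr1cl, at 13.35 and 12.68 in carotid body array 1, were instead high on every adrenal medulla array, at 14.16 to 14.44 and 13.19 to 13.61.

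With carotid body array 1 set aside, and over genes with an adrenal medulla mean at or above the 75th percentile, the tissue difference ranked Hao2 4, Mgarp 8, Olfm3 10, Klhdc8a 12 and Prss35 21. The ranks with all arrays, over genes that also passed the test, were 3, 6, 7, 10 and 8.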
